A study of Rattus norvegicus with 113 samples.

Results

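Axon guidance ligands and receptors are the secreted and membrane proteins that steer growing axons, and they were followed here in rat hippocampus and cortex after traumatic brain injury (TBI). The members are the genes whose rat symbols name a semaphorin, plexin, ephrin, Eph receptor, Slit, Robo, netrin or Unc5 receptor, together with Dcc, Nrp1 and Nrp2. The RefSeq gene table lists 70 such symbols, of which 55 had a probe on the arrays, among 16581 genes that could be named on the larger array design. Another 15 symbols had no named probe: Efna3, Epha6, Epha10, Ephb3, Plxna1, Plxna4, Plxnb1, Plxnb2-ps1, Plxnc1, Plxnd1, Robo3, Robo4, Sema3f, Sema5b and Sema6a. By role, the 55 genes were 17 semaphorins, 6 plexins or neuropilins, 7 ephrins, 11 Eph receptors, 5 Slits or Robos, and 9 genes of the netrin system (netrins, Dcc and Unc5 receptors).

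All rats were adult male Sprague-Dawley animals, and none carried a transgene. TBI rats received a parasagittal fluid percussion injury, in which a pulse of fluid strikes the exposed dura, graded as moderate by the labels and as severe by the methods. Sham rats had the same anesthesia and surgery without the pulse, so that they share the skull opening with the TBI rats. Naive rats were neither anesthetized nor handled. Whole hippocampus and a small piece of cortex near the injury site were taken at 24 hr, 2 weeks and 3, 6 and 12 months, and 1 array with 1 dye was hybridized per tissue sample (113 arrays). Each tissue, condition and interval had 4 rats, except that hippocampus 24 hr after surgery was represented by 2 sham and 3 TBI rats, without naive rats. That set and the 3 month hippocampus set were run on a smaller array design (17 arrays), which carried 53 of the 55 members and lacked Epha8 and Unc5d. Both tissues are mixtures of cells, so fewer cells of a type and less RNA per cell cannot be told apart.

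Guidance molecules work as pairs of ligand and receptor. Secreted semaphorins repel axons through neuropilins and plexins, ephrins and Eph receptors signal between touching cells in both directions, Slits repel axons through Robos, and netrins attract through Dcc and repel through Unc5. In the adult brain many of them stay on at synapses, on glia and in vessels, and the hippocampus, with its layered entorhinal, mossy fiber and Schaffer projections, is a classical tissue for their study.

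A level below is the log2 of the processed signal minus the array's median over all probes, so that 1 unit is a doubling, and a gene is read from its brightest probe. Levels are compared between samples and never between genes. Of the 53 members on both array designs, 33 were read from the same probe on each. The others, Sema6c and Nrp1 among them, were read from different probes. Their levels on the smaller design cannot be set beside those on the larger design. A gene was tested when all arrays of at least 1 compared group were well above background by the scanner software, and it is called when the adjusted p of limma, over all tested probes, is under 0.05. Between 41.2% and 93.0% of an array's probes were well above background (median 56.0%). The array with 93.0%, cortex sham replicate 3 at 2 weeks, correlated at 0.519 with the rest of its group. Cortex naive replicate 4 at 2 weeks (0.932) and hippocampus naive replicate 2 at 6 months (0.960) also stood apart, and the other 110 arrays correlated at 0.962 or more. Hippocampus naive replicate 3 at 6 months had a summed microglia marker level of 11.75 on the log2 scale, against 8.44 to 9.76 in the other naive arrays of that interval. Each group lay on 1 slide. At any 1 interval the arrays of the tissues were on different slides scanned on different days. Slide, scan day and tissue therefore cannot be told apart.

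Of the members on the larger design, 16 of 17 semaphorins, all 6 plexins and neuropilins, all 5 Slits and Robos, 9 of 11 Eph receptors, 5 of 7 ephrins and 5 of 9 netrin system genes were well above background on more than 50% of the 96 arrays. The dimmest were Epha1 (3.12% of arrays), Efnb2 and Ntn1 (7.29% each) and Ntn4 (11.46%). Ntn1 encodes the classical attractant of the ventral midline, and its probe was too dim for any of the comparisons below.

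Nrp2, Epha7 and Epha8, receptors called between the tissues at every interval tested, had entries in the RefSeq promoter table, and the 250 bases before their starts are shown because these genes carry the tissue result (build GRCr8, 5′ to 3′ on the gene's strand). Capitals mark the motifs that a search found: the GC box, spelled GGGCGG, the box spelled CCAAT, and the E-box that reads CAGCTG, each searched on both strands. The TATA box, spelled TATAAA, was found in none of these windows. Nrp2, a receptor for class 3 semaphorins, lies at chr9:71617004-71617253 on the plus strand.
Nrp2: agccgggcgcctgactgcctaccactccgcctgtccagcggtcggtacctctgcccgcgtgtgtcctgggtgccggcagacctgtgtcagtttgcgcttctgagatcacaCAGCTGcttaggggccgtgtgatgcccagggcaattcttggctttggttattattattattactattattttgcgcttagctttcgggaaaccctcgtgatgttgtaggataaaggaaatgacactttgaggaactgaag
The Epha7 window, chr5:47771643-47771892 on the plus strand, precedes a receptor for ephrin-A ligands.
Epha7: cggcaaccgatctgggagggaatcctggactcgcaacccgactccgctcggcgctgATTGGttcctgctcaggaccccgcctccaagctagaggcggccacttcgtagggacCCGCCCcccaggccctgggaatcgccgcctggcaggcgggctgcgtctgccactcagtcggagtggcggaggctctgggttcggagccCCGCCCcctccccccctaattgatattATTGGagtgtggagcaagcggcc
Epha8, another receptor of ephrin-A ligands, has its window at chr5:154476967-154477216 on the minus strand.
Epha8: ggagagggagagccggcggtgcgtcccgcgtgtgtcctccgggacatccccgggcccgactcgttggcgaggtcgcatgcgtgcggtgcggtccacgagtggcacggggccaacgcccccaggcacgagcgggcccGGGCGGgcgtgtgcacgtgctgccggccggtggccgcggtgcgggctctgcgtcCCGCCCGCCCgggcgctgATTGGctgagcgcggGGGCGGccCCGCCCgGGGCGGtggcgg
The window of Nrp2 held 1 E-box and no GC box, that of Epha7 held 2 GC boxes and 2 CCAAT motifs, and that of Epha8 held 6 GC boxes and 1 CCAAT motif. Their shares of G and C were 52.8%, 67.6% and 80.0%. Over 44 promoters of 43 members, 23 (52.3%) held GGGCGG, against 30.5% of all 33469 promoters of that length. TATAAA was in 0 of the 44 and in 12.9% of all, CCAAT in 17 (38.6%) against 34.0%, and CAGCTG in 9 (20.5%) against 12.0%. The median GC content was 61.0% in the members' windows and 51.2% in all. These matches describe letters in a window and were not tested as sites.

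The most extensive difference among the members was between the tissues. In naive rats, the neuropilin Nrp2, the ephrin Efnb3, the netrin receptor Dcc and the Eph receptors Epha8 and Epha7 were higher in hippocampus than in cortex at 2 weeks, 6 months and 12 months, and the repellent ligand Sema3a was lower at all of these intervals. Of the tested members, 6 of 46 were called at 2 weeks (1.89% of all probes tested), 24 of 45 at 6 months (29.7%), and at 12 months 28 of 45 (46.5%). The shares of members thus ran from 13% to 62.2%, above the share of all probes at each of these intervals. Without cortex sham replicate 3, which enters the spread of the 2 week fit, 24 of 46 members were called at 2 weeks (23.0% of probes). The 6 month fit includes hippocampus naive replicates 2 and 3, described above. There 27 members were called without replicate 2 and 20 without replicate 3. The shares of all probes in those runs are not given here. Groups did not overlap for 23, 16 and 21 members at the successive intervals, beside 18.1%, 17.9% and 37.5% of probes.

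Nrp2 encodes a co-receptor that binds class 3 semaphorins and vascular growth factors. At 12 months its level was 4.14, 4.83, 4.70 and 4.56 in naive hippocampus and 1.41, 1.41, 2.09 and 1.66 in naive cortex. Every hippocampal array was above every cortical array, with a wide gap between them. The difference was 2.79 (SE 0.44) at 2 weeks, 2.84 (SE 0.24) at 6 months and 2.91 (SE 0.18) at 12 months, or about 7.53-fold at 12 months (limma, adjusted p = 1.15e-10, n = 4 rats per tissue). Over all 36 arrays of each tissue at these intervals, naive, sham and TBI together, Nrp2 ran from 3.82 to 5.09 in hippocampus (median 4.65) and from -0.17 to 2.80 in cortex (median 1.98), with no overlap. Its difference stayed between 2.07 and 3.44 in the 9 pairs of condition and interval.

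Efnb3 encodes a transmembrane ephrin that acts as a midline barrier to axons. The naive hippocampus at 12 months gave 6.69, 6.96, 6.91 and 6.82, and the naive cortex 4.39, 4.57, 4.58 and 4.25. The arrays of a tissue lay close together and the tissues far apart, at 2.40 (SE 0.17, limma adjusted p = 7.82e-10). The difference was 2.46 (SE 0.62) at 2 weeks and 1.87 (SE 0.23) at 6 months, and over all conditions the lowest of the 36 hippocampal arrays (5.86) was above the highest of the 36 cortical ones (5.17). The 2 week call of Efnb3 (limma, adjusted p = 0.0387) held without cortex sham replicate 3 or cortex naive replicate 2 and was lost in 7 of 9 runs without 1 array (up to 0.155).

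Dcc encodes the receptor through which netrin attracts axons. Its levels in naive hippocampus at 12 months were 0.40, 1.05, 1.06 and 1.11, and those in naive cortex were -1.11, -1.11, -0.89 and -1.29. None of these cortical arrays was well above background for the gene, so the difference is a bound, at least 3.29-fold higher in hippocampus (limma, adjusted p = 4.03e-08 for the measured difference of 2.01). In cortex 2 of 4 naive arrays measured it at 2 weeks and 2 of 4 at 6 months, and the differences there were 2.48 (SE 0.47) and 1.79 (SE 0.29). Across the 36 arrays per tissue Dcc was 0.40 to 1.83 in hippocampus and -3.01 to 0.04 in cortex, again without overlap. Dcc passed the filter through hippocampus at each interval. In cortex all arrays were well above background in 2 of 14 groups, the sham group at 2 weeks left out. The separation thus rests in part on signal that was not well above background.

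Among the Eph receptors, Epha8 stood at 4.88, 4.68, 5.47 and 4.80 in naive hippocampus at 12 months, against 3.08, 3.06, 2.94 and 3.07 in naive cortex. Its difference was 1.92 (SE 0.24, limma adjusted p = 3.07e-06) at 12 months, 1.78 (SE 0.25) at 6 months and 2.57 (SE 0.59) at 2 weeks. Epha7 showed the same direction, with 3.65, 3.98, 3.90 and 4.02 in hippocampus and 1.87, 2.05, 2.26 and 2.11 in cortex, a difference of 1.81 (SE 0.19, limma adjusted p = 2.64e-07). The 2 week call of Epha8 (limma, adjusted p = 0.0199) was lost in 4 of 9 runs without 1 array, those of hippocampus naive replicate 1 or 2 and cortex naive replicate 1 or 4 (up to 0.0971). For both genes the hippocampal and cortical arrays were separate in every condition at 2 weeks, 6 months and 12 months. Other Eph receptors went the other way: Epha2, named after its values were seen, was lower in hippocampus, with differences of -1.09 (SE 0.25; limma, adjusted p = 0.00165) at 6 months and -0.92 (SE 0.21, adjusted p = 0.00111) at 12 months.

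Sema3a, a secreted repellent that signals through Nrp1 with plexins, ran the other way. In naive cortex at 12 months it was 0.61, 0.26, 1.19 and -0.50, and in naive hippocampus -1.69, -2.63, -2.83 and -1.79. All 4 cortical arrays and none of the hippocampal arrays were well above background, so that cortex was at least 1.68-fold higher (limma, adjusted p = 2.53e-07 for the measured difference). At 2 weeks the bound was at least 3.74-fold, again with 0 of 4 hippocampal arrays above background, and at 6 months 1 of 4 was. The highest of the 36 hippocampal arrays (-0.61) lay just below the lowest of the 36 cortical ones (-0.50). Sema3a passed the filter through cortex only, and in 0 of 9 hippocampal groups were all arrays well above background. The separation of the 36 arrays therefore rests in part on signal that was not well above background.

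**Figure D1:**
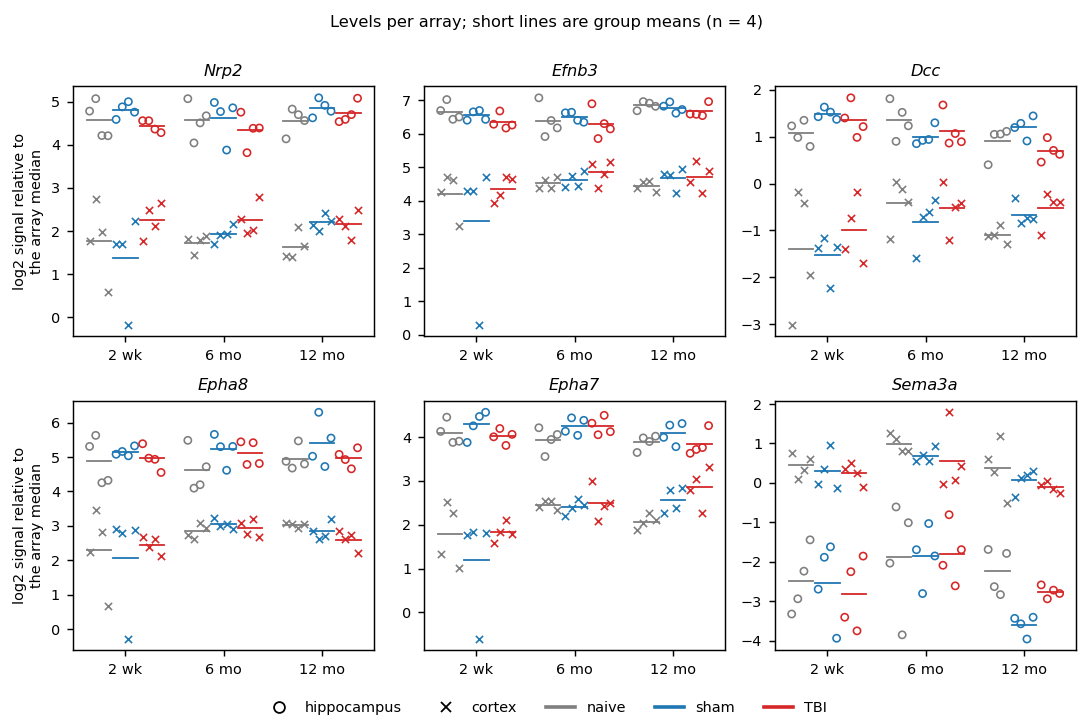
Level of 6 genes on each array (vertical axis, log2 signal relative to the array median) at 2 weeks, 6 months and 12 months; circles are hippocampus, crosses cortex, colours the condition, and short lines the mean of 4 arrays. In Nrp2, Efnb3, Dcc, Epha8 and Epha7 every circle lies above every cross, and in Sema3a the circles lie below, and the 1 cortical sham array at 2 weeks that stood apart is the lowest cross in Nrp2, Efnb3, Epha8 and Epha7.

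With the 2 week fit taken without cortex sham replicate 3, an alternative chosen after seeing the data, 13 of the 45 members tested at all 3 intervals (28.9%) were called in the same direction at each, against 6.94% of the 22040 probes tested at all 3. The 11 higher in hippocampus were Dcc, Efnb3, Epha5, Epha7, Epha8, Nrp1, Nrp2, Sema5a, Slit1, Slit3 and Unc5c, and the 2 lower were Efna5 and Sema3a; the 7 of these not described above were named after their values were seen. Nrp1, the partner of Nrp2 and the main Sema3a receptor, differed by 1.70, 2.22 and 2.09 at the successive intervals. Sema5a, a transmembrane semaphorin, differed by 1.60, 1.65 and 1.44, and its 36 hippocampal arrays (3.13 to 4.44) lay above all 36 cortical arrays (-3.48 to 2.76). Efna5, a ligand of Epha receptors, was at -2.59, -3.09 and -2.60, and without the array that stood apart it was at 1.75 to 4.52 in hippocampus and 4.06 to 6.44 in cortex, which overlap. The Slits, repellents that act through Robos, differed less: Slit1 by 1.54, 0.80 and 1.12, and Slit3 by 1.44, 0.67 and 0.71. Unc5c, a repulsive netrin receptor, differed by 1.13, 0.50 and 0.76, and Epha5, a receptor for ephrin-A ligands, by 1.27, 0.57 and 0.86.

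Not every member kept its direction. In the same fits Efnb1, a transmembrane ephrin and likewise named after its values were seen, was at 1.37 at 2 weeks, -0.37 at 6 months and -1.40 at 12 months, called at the first and last of these in opposite directions. The 2 week value rests on cortex naive replicate 4, which stood apart: without that array as well it was 0.59 (SE 0.25; limma, adjusted p = 0.0992) and not called. Its 12 month naive hippocampus arrays are described below, where 1 of 4 was well above background. Plxna2, a class A plexin, was at 0.61, -0.43 and -0.36, called at each interval but with a different sign at 2 weeks, where it was 0.35 (limma, adjusted p = 0.0392) without replicate 4 as well. On the scale used, the median of all probes in this comparison was 0.44 at 2 weeks and -0.01 with the 75th percentile in place of the median.

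By role at 12 months, 4 of 5 tested netrin system genes were higher in hippocampus and none lower. Of 9 Eph receptors 5 were higher and 3 lower, of 5 Slits and Robos 3 were higher and 1 lower, of 6 plexins and neuropilins 2 were higher and 1 lower, of 5 ephrins 1 was higher and 2 lower, and of 15 semaphorins 2 were higher and 4 lower. Over all probes tested at 12 months 32% were called higher in hippocampus and 14.5% lower. The median over the tested members was 0.15, beside 0.13 over all probes. The signs agreed at all 3 intervals for 27 of 45 members (60%) and for 50.2% of probes.

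The tissue difference was also read in rats that had surgery. With sham arrays in place of naive ones 8 of 40, 19 of 45 and 24 of 48 members were called at the 3 intervals (5.04%, 16.9% and 40.2% of probes), and with TBI arrays 5 of 47, 14 of 46 and 25 of 45 (2.67%, 9.26% and 34.2%). Nrp2, Efnb3, Dcc, Epha7, Epha8, Nrp1, Sema5a and Sema3a had separate hippocampal and cortical arrays in 9 of 9 pairs of condition and interval, Efna5 and Slit1 in 8, Epha5 and Slit3 in 7 and Unc5c in 6. For Dcc in cortex and Sema3a in hippocampus, part of these values were not well above background.

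**Figure D2:**
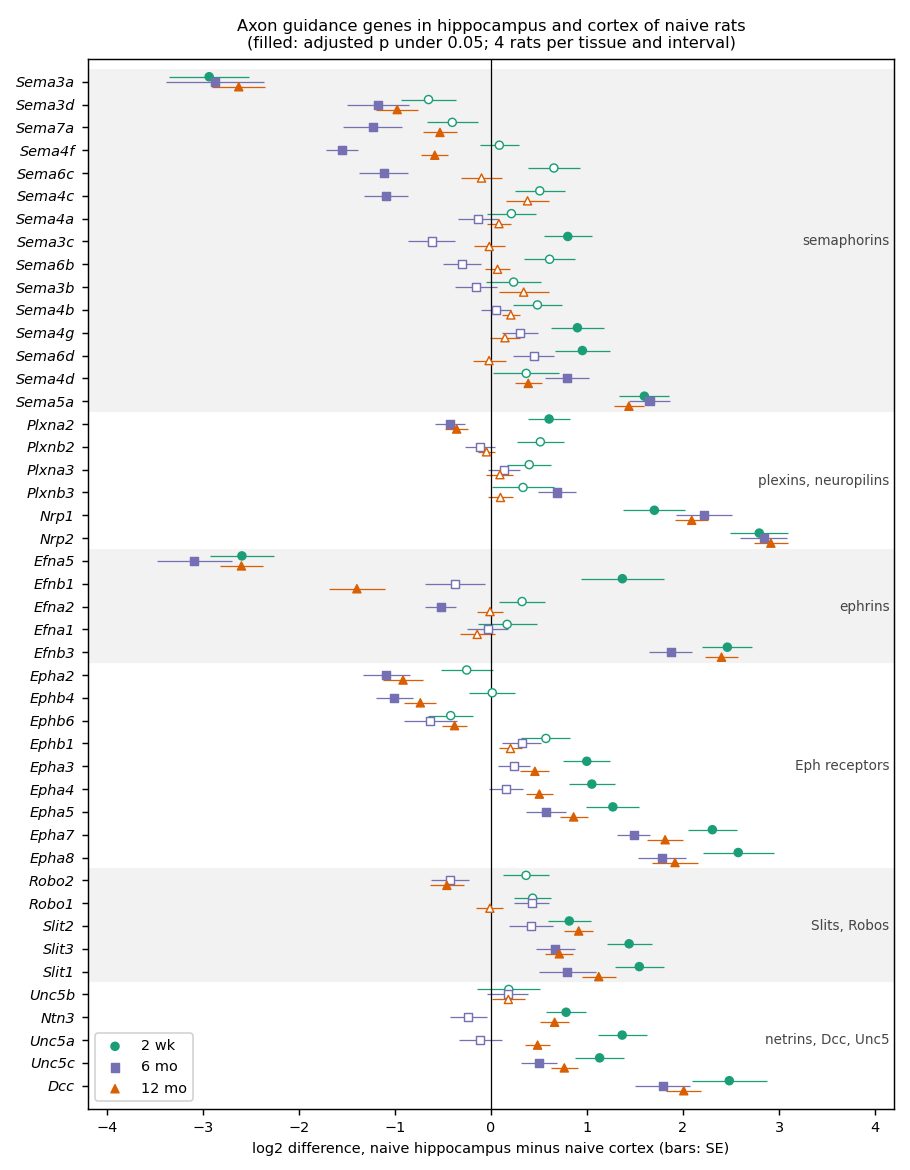
Log2 difference between naive hippocampus and naive cortex (horizontal axis, bars are SE) for the 45 members tested at all 3 intervals, grouped by role; filled symbols have an adjusted p under 0.05, and the 2 week fit is without the cortical sham array that stood apart. Nrp2, Nrp1, Efnb3, Epha7, Epha8, Dcc and Sema5a lie far to the right at every interval and Sema3a and Efna5 far to the left, while most semaphorins and plexins lie near 0 or change side. For Dcc at 12 months and Sema3a at 2 weeks and 12 months no array of the dimmer tissue was well above background. Their symbols show measured differences, which are larger than the bounds given in the text.

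Markers of the tissues and of other cells moved with this comparison. At 12 months the summed level of the hippocampus identity markers was 8.30 to 8.57 in hippocampus and 7.99 to 8.42 in cortex, which overlap, with 2 of 6 genes higher. Choroid plexus markers, 3 of 3 tested genes higher, summed to 6.34 to 12.88 in hippocampus and 3.91 to 5.19 in cortex. Microglia (6 of 8 genes higher, 9.13 to 9.68 against 8.42 to 8.88) and astrocyte markers (5 of 6 higher, 10.16 to 10.40 against 9.67 to 10.05) were higher in hippocampus, and endothelial (4 of 6 lower, 7.77 to 8.09 against 8.13 to 8.25) and striatum markers (3 of 7 lower, 7.34 to 7.72 against 8.14 to 8.37) lower. Neuron markers were split, 2 of 6 higher and 2 lower (10.16 to 10.44 against 10.69 to 11.03), as were those of meninges and fibroblasts, 1 of 5 higher and 2 lower (5.68 to 8.28 against 7.20 to 7.52). Of 6 oligodendrocyte markers 2 were higher (12.73 to 12.78 against 12.08 to 12.70). The part of these cells in the differences of the members was not tested.

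The comparison of TBI with sham asks what the injury did to guidance genes, and it called few of them. In hippocampus, Sema6c was lower at 24 hr and Sema6d and Robo1 were lower at 2 weeks. No member was called in hippocampus at 3, 6 or 12 months or in cortex at any interval. The cortical result at 24 hr depended on the processing. Some members were called there with another background correction or without the filter on dim probes, as given in the last section.

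At 24 hr 1 of 36 tested members was called in hippocampus, beside 13.6% of all probes, so the members' share (2.78%) was below the background. The sham and TBI arrays of this interval lay on different slides scanned on different days, so injury cannot be told apart from slide and scan day in any hippocampal value at 24 hr. Sema6c encodes a transmembrane semaphorin that acts through class A plexins. Its level was 4.40 and 4.70 on the sham arrays and 3.91, 3.82 and 3.80 on the TBI arrays, so that the TBI arrays lay close together and below both sham arrays. The mean fell by 0.71 (SE 0.15; limma, adjusted p = 0.0327, n = 2 and 3). A second probe gave -0.90 with an adjusted p of 0.0572 in the same limma fit, and the call was lost in all 5 runs without 1 array (limma adjusted p from 0.0614 to 0.181). Of the 36 tested members 28 (77.8%) were below 0 at 24 hr, against 51.9% of probes, with a median of -0.21 beside -0.02. Groups did not overlap in 16 of 36 members, beside 50.2% of probes. By role the median was -0.46 over 4 plexins and neuropilins, -0.35 over 5 Slits and Robos, -0.20 over 8 Eph receptors and over 3 netrin system genes, -0.11 over 4 ephrins and -0.09 over 12 semaphorins.

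Several members had an unadjusted p under 0.05 at 24 hr without being called. They include the semaphorin co-receptor Nrp1 at -0.98 (SE 0.29; limma, adjusted p = 0.0739), Epha4 at -0.64 (SE 0.17, adjusted p = 0.0544) and Robo2 at -0.53 (SE 0.14, adjusted p = 0.0600), and on the other side the plexin Plxnb2 at 0.69 (SE 0.24, adjusted p = 0.110) and Sema3c at 0.61 (SE 0.20, adjusted p = 0.10). These genes were named after their values were seen. In all, 7 of the 36 were lower with such a p (17.4% of probes) and 3 higher (14%).

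At 2 weeks 2 of 46 tested members were called in hippocampus (4.35%), beside 2.43% of probes. Sham and TBI arrays shared a slide here. Besides these, 1 of 3 further probes of Epha5 was called lower, at -0.43 (SE 0.10; limma, adjusted p = 0.0488), while the brightest probe, from which the gene is read, gave -0.28 (adjusted p = 0.131). Sema6d, a transmembrane semaphorin that binds Plxna1, was 4.65, 4.98, 4.70 and 4.62 in sham rats, 4.08, 4.31, 4.18 and 4.07 in TBI rats and 4.43, 4.64, 4.54 and 4.29 in naive rats. All TBI arrays were below all sham arrays, and the naive arrays lay between, overlapping both groups. The TBI mean fell by 0.58 (SE 0.10; limma, adjusted p = 0.0292, n = 4), or 1.49-fold.

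Robo1 encodes a receptor for Slits. It was 1.78, 1.91, 1.85 and 1.96 in sham rats and 1.39, 1.58, 1.32 and 1.25 in TBI rats, while naive rats, at 1.83, 1.32, 1.53 and 1.65, spanned much of both ranges. The TBI mean fell by 0.49 (SE 0.11; limma, adjusted p = 0.0451, n = 4). Both calls at 2 weeks held without TBI replicate 2 or sham replicate 1 and were lost without any of the 6 other arrays (highest limma adjusted p 0.0988 for Sema6d and 0.139 for Robo1), and that of Robo1 was also lost with the 75th percentile in place of the median (-0.39, limma adjusted p = 0.108).

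**Figure D3:**
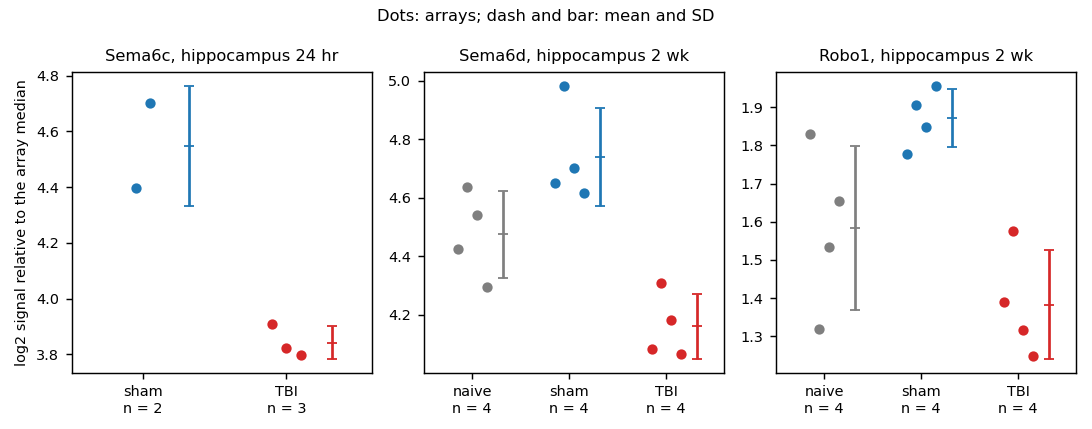
Level of the 3 members called in TBI vs sham, all in hippocampus (vertical axis, log2 signal relative to the array median); dots are arrays, and the dash and bar beside them the mean and SD. In each panel all TBI arrays lie below all sham arrays; naive arrays exist at 2 weeks, where they overlap the sham and TBI arrays.

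Most other members had lower values after TBI at 2 weeks, as did most probes on this scale. Of the 46 tested, 16 were lower with an unadjusted p under 0.05 (34.8%, beside 20.9% of probes) and 1, Plxnb2, was higher (4.18% of probes) at 0.24 (SE 0.10; limma, adjusted p = 0.153). Besides Robo1, the Slit and Robo genes with such a p were Robo2 at -0.53, Slit1 at -0.35, Slit2 at -0.40 and Slit3 at -0.31, so that all 5 genes of this role had one. In all 38 of 46 members (82.6%) were below 0, beside 74.0% of probes, and the median was -0.22 beside -0.11. Because all probes were shifted on this scale, the same count with the 75th percentile was 32 of 46, with a median of -0.12 beside -0.02. Groups did not overlap in 9 of 46 members (17.8% of probes). The median by role was lowest in the 5 Slits and Robos (-0.40), and was -0.27 in 5 netrin system genes, -0.19 in 9 Eph receptors, -0.18 in 6 plexins and neuropilins, -0.13 in 15 semaphorins and -0.12 in 6 ephrins. These medians and the counts at an unadjusted p are given on the shifted scale only.

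Microglia markers moved with these comparisons. At 24 hr 1 of 8 was called higher and the summed level was 9.37 to 9.96 on TBI and 8.83 to 9.11 on sham arrays; at 2 weeks 7 of 8 were higher, at 8.89 to 9.85 against 8.38 to 8.70. Neuron markers had 1 of 5 called lower at 24 hr (8.49 to 8.75 against 8.70 to 8.71) and 1 of 6 at 2 weeks (9.96 to 10.10 against 10.22 to 10.30). Their part in the values of Sema6c, Sema6d and Robo1 was not tested.

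Downstream and beside the receptors, a list of 67 co-receptors and effectors was read in the same fits. At 24 hr 2 of 51 tested were higher and 2 lower, beside 5.57% of all probes higher and 8.07% lower, so the list's share was below the background. Fes, a tyrosine kinase downstream of plexins that myeloid cells also express, rose by 1.36 (SE 0.32; limma, adjusted p = 0.0402), and Limk2, a kinase that acts on cofilin, rose by 1.01 (SE 0.22, adjusted p = 0.0354). Mical2, of the MICAL oxidoreductases, fell by 1.15 (SE 0.26, adjusted p = 0.0396) and the adhesion molecule Cntn2 fell by 0.80 (SE 0.16, adjusted p = 0.0260).

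At 2 weeks 1 of 58 was higher and 3 were lower, beside 1.07% and 1.36% of all probes. Fes was again higher, by 1.11 (SE 0.20; limma, adjusted p = 0.0300), while the collapsin response mediators Crmp1 and Dpysl2 fell by 0.43 (SE 0.09, adjusted p = 0.0380) and by 0.29 (SE 0.07, adjusted p = 0.0481). No gene of the list was called in TBI vs sham in hippocampus at 3, 6 or 12 months or in cortex at any interval. A second list, 15 genes of myelin-associated growth inhibition, had 4 of 12 lower at 24 hr (8.07% of all probes, as above), among them the Nogo receptor relatives Rtn4rl1 (-1.84, SE 0.20; limma, adjusted p = 0.00595) and Rtn4rl2 (-0.99, SE 0.13, adjusted p = 0.00933), and 1 of 15, Rtn4rl1, lower at 2 weeks (-0.59, SE 0.10, adjusted p = 0.0251).

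At the later intervals 0 of 34, 0 of 44 and 0 of 46 members were called by limma in hippocampus at 3, 6 and 12 months (0.0134%, 0.0134% and 0% of probes); the counts at an unadjusted p below 0.05 were 3, 2 and 7, beside 6.12%, 2.87% and 14.5% of probes. At 12 months Dcc, Nrp1 and Efna5 had a fold of at least 1.4 with such a p, and no call. Dcc was 1.20, 1.29, 0.91 and 1.44 in sham and 0.46, 0.98, 0.71 and 0.62 in TBI rats, which overlap, at -0.52 (SE 0.18; limma, adjusted p = 0.272). Nrp1 was 5.14, 5.70, 5.07 and 5.65 against 4.49, 4.92, 4.92 and 5.15, at -0.52 (SE 0.18, adjusted p = 0.276). A second probe, the one from which Nrp1 is read on the smaller design, gave -0.12.

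Efna5 was 2.98, 1.92, 3.10 and 2.15 in sham and 3.28, 3.25, 3.35 and 3.03 in TBI rats at 12 months. The TBI arrays lay close together and the sham arrays did not, with overlap, and the difference was 0.69 (SE 0.28; limma, adjusted p = 0.315). A second probe gave 0.57, and naive rats were at 2.76, 3.45, 2.56 and 3.52, spread over the range of both groups.

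In cortex 0 of 46 members were called at 24 hr (0.217% of probes), 0 of 44 at 2 weeks (0.00848%), 0 of 41 at 3 months (0%), 0 of 46 at 6 months (0.0805%) and 0 of 46 at 12 months (0%), by limma, and 6, 0, 2, 0 and 3 had an unadjusted p under 0.05, beside 20.8%, 4.05%, 4.37%, 9.87% and 5.77% of probes. Without cortex sham replicate 3 the count at 2 weeks was still 0 of 44, while 2.16% of probes were called; that array also moves the median of all probes, which was 0.95 with it on this scale. The 6 at 24 hr, named after their values were seen, were Sema4a at 0.47 (SE 0.12; limma, adjusted p = 0.0774), Slit1 at 0.46, Unc5b at 0.58, Plxnb2 at 0.31, Efna4 at 0.94 and Slit2 at -0.67. Of these 5 were higher (18.8% of probes) and 1 lower (2.03%). The TBI arrays of Sema4a, Slit1 and Unc5b were separate from the sham arrays (3 of 46 members, beside 11.7% of probes). In cortex, sham and TBI arrays lay on different slides at 24 hr, 2 weeks and 6 months, as in hippocampus at 6 months. Injury and slide cannot be told apart in those comparisons.

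A test of whether the TBI effect differed between the tissues called 0 members at each of the 5 intervals (38, 47, 34, 46 and 48 tested with limma), beside 3.59%, 0%, 0%, 0.004% and 0% of probes, and 9, 1, 1, 1 and 9 had an unadjusted p under 0.05, beside 17.1%, 2.33%, 5.16%, 1.75% and 8.71% of probes. Where the tissues were run on different array designs, this test could use only probes on both designs. The called Sema6c probe is on the smaller design only, so the test at the earliest interval did not include it. At the next interval, that of Sema6d and Robo1, the fit included the cortical sham array that stood apart, and no probe was called. The test therefore cannot decide whether cortex responded differently for Sema6c, Sema6d or Robo1.

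**Figure D4:**
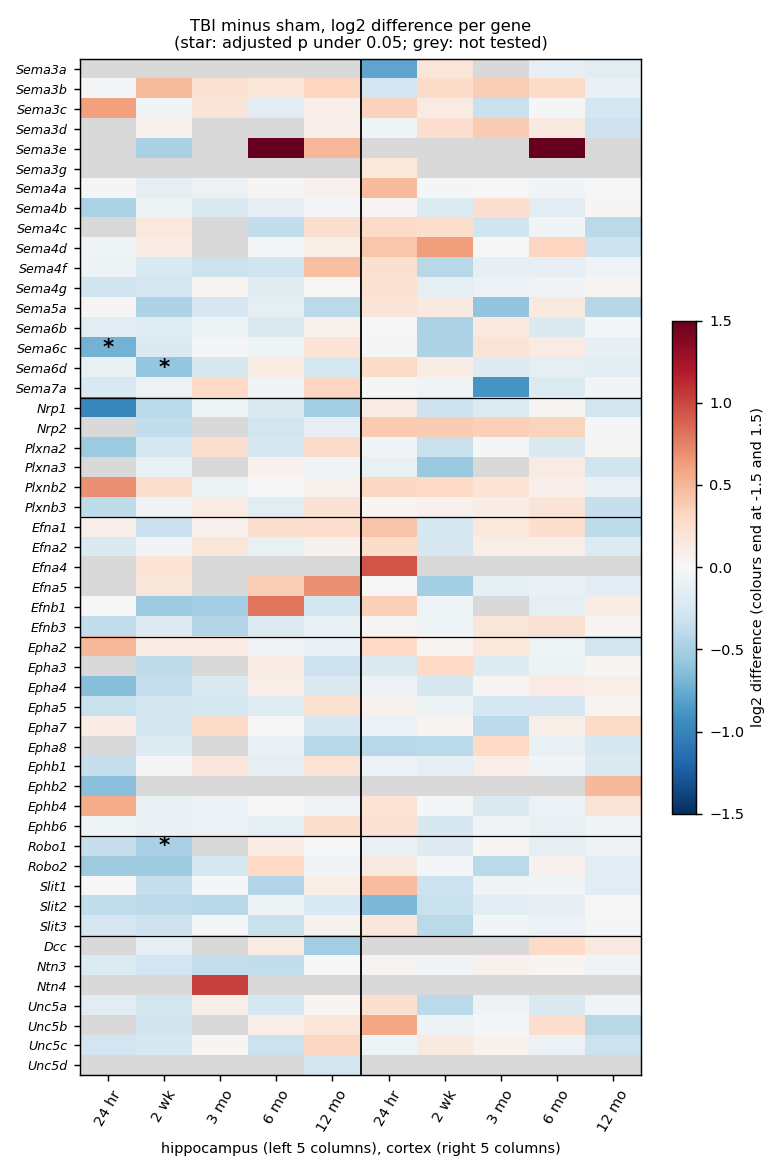
Log2 difference between TBI and sham (colour, blue lower and red higher after TBI) for every member tested in at least 1 of 10 comparisons, with 5 intervals in hippocampus on the left and 5 in cortex on the right; stars mark an adjusted p under 0.05 and grey cells were not tested. The 3 stars are Sema6c at 24 hr and Sema6d and Robo1 at 2 weeks in hippocampus, and the cortex column at 2 weeks is drawn without the sham array that stood apart.

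Sham against naive shows what surgery, anesthesia and handling went with in the absence of injury. In cortex at 24 hr 10 of 43 tested members (23.3%) were called, all lower in sham rats, beside 18.3% of all probes called lower. The median of all probes was itself -0.20 there. On another scale, given below, no member was called, so this count does not set the members apart from all probes. Outside the cortex at 24 hr all called members were higher in sham rats, with semaphorins in front in hippocampus at 6 months. In hippocampus at 2 weeks and 12 months and in cortex at 12 months the naive arrays lay on another slide than the sham and TBI arrays, so slide and surgery cannot be told apart for the calls of Epha4, Efnb1 and Sema5a given here. In hippocampus at 6 months and cortex at 24 hr naive and sham arrays shared a slide.

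In hippocampus 1 of 44 members was called at 2 weeks (8.94% of probes), 0 of 34 at 3 months (0%; 4 at an unadjusted p under 0.05 in limma, beside 5.71% of probes), 4 of 41 at 6 months (3.54%) and 2 of 46 at 12 months (3.11%). At 6 months Sema4c, a transmembrane semaphorin that binds Plxnb2, was -0.40, -0.33, -0.02 and -0.88 in naive and 0.86, 1.14, 0.62 and 0.83 in sham rats, a rise of 1.27 (SE 0.21; limma, adjusted p = 0.00117). Sema4f rose from 2.93, 2.40, 2.77 and 2.42 to 3.63, 3.84, 3.63 and 3.75, by 1.08 (SE 0.20, adjusted p = 0.00257). In both genes all sham arrays were above all naive arrays, and TBI rats, at 0.13 to 0.66 for Sema4c and 3.10 to 3.71 for Sema4f, were above the naive arrays as well. Of the naive arrays 2 of 4 were well above background for Sema4c and 4 of 4 for Sema4f, so that Sema4c passed the filter through the sham group.

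Sema6c at 6 months was 0.68, -0.45, 0.17 and -1.13 in naive and 1.20, 0.89, 0.68 and 1.12 in sham rats, higher by 1.15 (SE 0.27; limma, adjusted p = 0.0157), with the groups touching and 3 of 4 naive and all sham arrays well above background, a call lost without sham replicate 1 or naive replicate 4 (adjusted p up to 0.0985). The last of the 4 called was Efna2, an ephrin, at 0.76 (adjusted p = 0.0355). In all 13 of 41 members were higher at an unadjusted p under 0.05 (31.7%, beside 13% of probes). Naive replicates 2 and 3 of this interval stood apart in correlation or in microglia markers, and without both the count of called members was 2 and the median over the members -0.11 in place of 0.16. The share and median of all probes in that fit are not given here, so these values do not show whether members moved apart from all probes. Neuron markers moved with this comparison, at a summed level of 9.10 to 10.13 in naive and 10.31 to 10.43 in sham rats, with 1 of 6 called higher and no overlap. The part of neurons and microglia in the values of these 4 genes was not tested.

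At 12 months Efnb1, a transmembrane ephrin that binds EphB receptors, was -1.51, 0.42, -0.43 and -0.46 in naive and 0.74, 0.90, 1.06 and 2.05 in sham hippocampus. Only 1 of the 4 naive arrays was well above background for it, so it passed the filter through the sham group and the naive mean is near background; the difference of the measured values was 1.68 (SE 0.36; limma, adjusted p = 0.0292). Sema5a was 3.49, 3.67, 3.50 and 3.26 against 3.90, 4.28, 3.92 and 4.14, higher by 0.58 (SE 0.14, adjusted p = 0.0423), and TBI rats at 3.48 to 4.01 overlapped both groups. In limma without 1 array, Efnb1 kept its call in 3 of 8 runs (without sham replicate 1 or naive replicate 1 or 2; highest adjusted p 0.0895) and Sema5a in 1 of 8 (without naive replicate 2; highest adjusted p 0.138).

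Epha4, an Eph receptor that binds ephrins of both classes, was called in both tissues, at different intervals. In hippocampus at 2 weeks it was 6.55, 6.21, 6.15 and 6.25 in naive and 6.52, 6.66, 6.83 and 6.65 in sham rats, higher by 0.37 (SE 0.10; limma, adjusted p = 0.0375), and TBI rats were at 6.22 to 6.43. In cortex at 12 months it was 5.67, 5.83, 5.48 and 5.89 in naive, 6.17, 6.01, 6.32 and 6.33 in sham and 6.17, 6.27, 6.40 and 6.34 in TBI rats. There the sham arrays were all above the naive arrays by 0.49 on average (SE 0.11, adjusted p = 0.0255), as 1 of 46 members called (4.35% of probes). In limma without 1 array the hippocampal call held in 2 of 8 runs (without sham or naive replicate 1; highest adjusted p 0.108) and the cortical call in 3 of 8 (without sham replicate 2 or naive replicate 2 or 4; highest adjusted p 0.0815).

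In cortex at 24 hr 10 of 43 members were lower in sham than in naive rats and none higher, beside 18.3% of probes lower and 19.2% called in either direction. Epha8 was 2.73, 3.11, 3.07 and 3.13 in naive and 1.60, 2.23, 2.40 and 1.93 in sham cortex (-0.97, SE 0.23; limma, adjusted p = 0.0166). Ephb1 was 4.56, 4.32, 4.56 and 4.38 against 3.41, 3.55, 3.99 and 3.79 (-0.77, SE 0.14, adjusted p = 0.00801), and Unc5a 6.06, 6.22, 6.26 and 6.30 against 5.62, 5.37, 5.49 and 5.55 (-0.70, SE 0.13, adjusted p = 0.00893). Each of these genes had separate groups. The median of all probes was itself -0.20 here on the median scale and -0.02 with the 75th percentile, and on that scale no member was called, with Epha8 at -0.79, Ephb1 at -0.59 and Unc5a at -0.52. In cortex at 2 weeks, 3 months and 6 months 0 of 42, 0 of 40 and 0 of 44 members were called by limma (0%, 0.413% and 0% of probes), and 0, 2 and 1 had an unadjusted p under 0.05, beside 0.0487%, 9.07% and 6.76% of probes.

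Naive rats at 12 months were compared with those at 2 weeks on the larger design. In hippocampus 1 of 44 members was called (0.565% of probes): Sema3b, a secreted class 3 semaphorin, was 1.92, 1.87, 2.63 and 2.51 at 2 weeks, 2.85, 2.45, 2.72 and 2.77 at 6 months and 3.44, 3.57, 3.72 and 3.63 at 12 months. The 12 month arrays lay above all of the earlier ones, with a rise of 1.36 over 2 weeks (SE 0.21; limma, adjusted p = 0.00348), or 2.56-fold. Sham rats were at 1.39 to 2.15 at 2 weeks, 2.90 to 3.51 at 6 months and 2.77 to 3.4 at 12 months, and TBI rats at 1.94 to 2.72, 2.90 to 3.92 and 2.99 to 3.71, so that these groups had reached their upper range by 6 months. Sema3b also had the widest range of group means among the members detected in every group, 1.70 over the 9 hippocampal groups of the larger design (1.89 to 3.59) and 1.67 in cortex. Age, slide and scan day cannot be told apart in this comparison.

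In cortex 2 of 44 members were called between 12 months and 2 weeks (2.36% of probes). Efnb1 was -0.16, 0.21, 0.27 and -3.02 at 2 weeks and 0.81, 1.32, 0.83 and 0.63 at 12 months, and Unc5a 5.46, 5.92, 5.75 and 4.30 against 6.44, 6.67, 6.13 and 6.32. In both genes the lowest value belongs to replicate 4 at 2 weeks, which stood apart. The differences were 1.57 (SE 0.42; limma, adjusted p = 0.0412) and 1.04 (SE 0.28, adjusted p = 0.0407), and without that array 0.79 (adjusted p = 0.0773) and 0.68 (adjusted p = 0.0490). Without another single array the limma call of Efnb1 held in 2 of 7 runs and that of Unc5a likewise, in each case without naive replicate 2 or 3 of 2 weeks. The median of all probes was 0.43 here, and -0.02 with the 75th percentile, where Efnb1 was at 1.12 and Unc5a at 0.59.

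**Figure D5:**
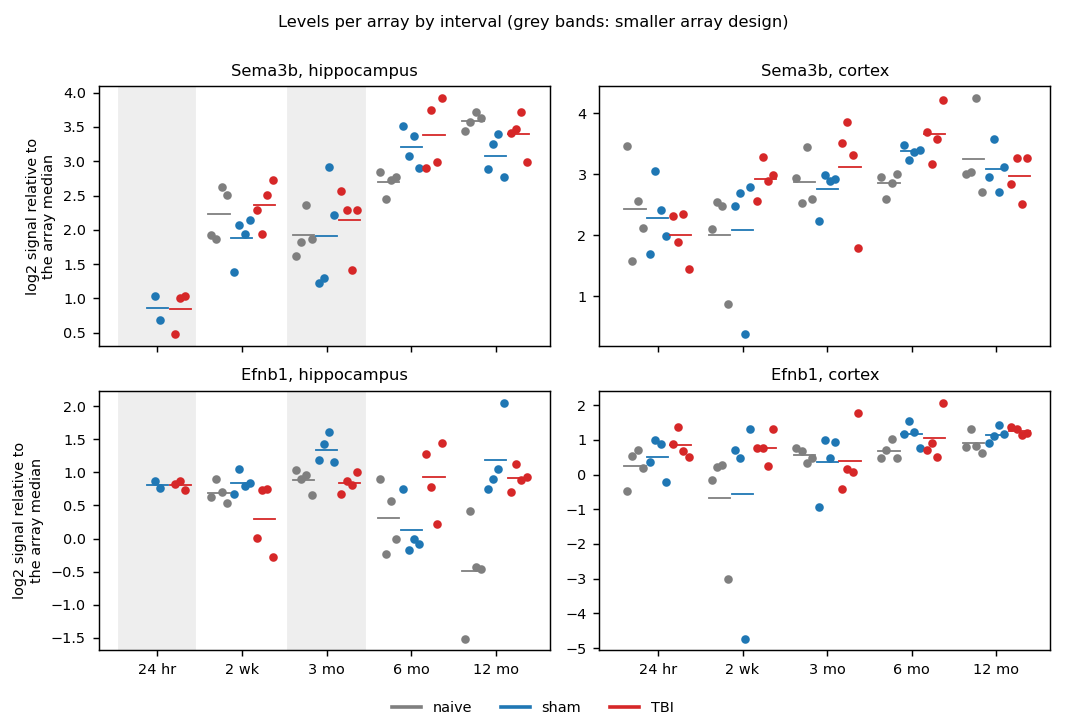
Level of Sema3b and Efnb1 on each array (vertical axis, log2 signal relative to the array median) by interval in hippocampus and cortex, coloured by condition, with short lines at group means; grey bands mark the smaller array design, whose probe can differ. Hippocampal Sema3b reaches 2.77 to 3.72 over all conditions at 12 months against 1.39 to 2.72 at 2 weeks, and the isolated low points of Efnb1 in cortex at 2 weeks are the 2 arrays that stood apart.

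Across groups within a tissue the levels can be summarised by the range of group means. In hippocampus the means of 35 members detected throughout spanned 0.20 to 1.70 units with a median of 0.66 over 9 groups, and in cortex those of 37 members spanned 0.51 to 1.67 with a median of 0.88 over 14 groups, the sham group at 2 weeks left out. The narrowest was Ephb1 in hippocampus, a receptor for ephrin-B ligands, whose 9 group means lay between 4.21 and 4.41. The narrowest in cortex was Ephb6, an Eph receptor without kinase activity, between 6.17 and 6.68.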

How the data were processed

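RNA of single rats was hybridized to 1-colour Agilent arrays of 2 designs (45598 and 30367 probes). The authors extracted intensities with Agilent Feature Extraction (version 11.5.1.1 per the file headers); the deposited scanner intensity used here is the background-subtracted processed signal, and the authors' own tables hold that linear intensity divided by a constant per array. The number of arrays limits the precision; 41.2% to 93.0% of probes were well above background and none was saturated.

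Log2 processed signal minus the array's median over non-control probes was fitted with limma 3.58.1 in R 4.3.3 (with the data.table package, version 1.17.8), with all groups of a tissue and interval (both tissues for tissue contrasts) sharing 1 spread, for 29 comparisons. Spots of a probe were averaged, and outlier spots were left out and skipped in the fit. A probe was tested where well above background on every array of at least 1 group, and p-values were adjusted by Benjamini-Hochberg over all tested probes. The steps were tested on simulated data.

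Probe names came from RefSeq (GRCr8) through accessions, for 46.3% and 61.4% of probes of the larger and smaller design. Where all arrays of a group were not above background, the fold is a bound: the bright group's mean against, per array, the higher of the dim probe's signal and the lowest signal well above background. Members and lists were chosen with earlier results of these data known. Named genes are all members called in TBI vs sham, up to 3 in each direction for sham vs naive and for 12 months vs 2 weeks, up to 5 in each direction called between tissues at all 3 intervals, members at 12 months past a 1.4-fold TBI difference whose unadjusted p was below 0.05, and called genes of the co-receptor and effector list; others were named after their values were seen. Within a group each array is a different rat per the study methods.

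Naive hippocampus and cortex came from the same rats by the rat numbers of the deposited data. Deviations of naive arrays with the same replicate number correlated across the tissues at 0.11 to 0.25 at 2 weeks. They did so at -0.33 to 0.05 at 6 months and at 0.28 to 0.37 at 12 months. With the replicate number as a block 5, 23 and 28 members were called between tissues. That block joins naive, sham and TBI rats of the same number, so the pairing of tissues within a rat was not fitted. The shares of all probes called with that block are not given here. Alternatives tried were the 75th percentile, quantile normalization, the authors' values, normexp background correction with an offset of 50, no filter on dim probes, the replicate block, the mean of a gene's probes and leaving out each array. Slides hold whole groups, so a slide block was not fitted. One marker list and 1 gene of the co-receptor and effector list are not reported here.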

Additional observations from a re-analysis of the deposited data

Results flagged for a closer look

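Within 72 groups of named genes, 4 held an array whose distance from the nearest other array was large for the group's range, a share of 1 in 20 being what chance alone gives. Epha8 in naive cortex at 24 hr had replicate 1 at 2.73, with the nearest array at 3.07. Efnb1 in naive cortex at 2 weeks had replicate 4 at -3.02, nearest -0.16; this array also stood apart over all probes. Dcc in naive hippocampus at 12 months had replicate 1 at 0.40, nearest 1.05, and Epha8 in naive cortex at 12 months had replicate 3 at 2.94, nearest 3.06.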

How the results depend on the processing

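Of 460 recomputed counts of called members 380 stayed within 1.5 times of the reported count. Counts of 0 that stayed 0 are among these 380, so the share says little about the counts above 0. No named gene reversed its direction in 571 recomputed values, and 104 of these missed the threshold. The share of all probes called is not set beside the recomputed counts below. They therefore do not show whether members moved apart from all probes. With the 75th percentile, and equally with the authors' values, hippocampal TBI vs sham went from 1 to 4 members at 24 hr and from 2 to 1 at 2 weeks, cortical sham vs naive at 24 hr from 10 to 0, the tissues at 2 weeks from 6 to 13 and hippocampus 12 months vs 2 weeks from 1 to 3. With quantile normalization these were 2, 1, 1, 8 and 2, and cortical sham vs naive at 12 months went from 1 to 0. Normexp gave 3 and 1 members in hippocampal TBI vs sham at 24 hr and 2 weeks, 2 and 5 in hippocampal sham vs naive at 2 weeks and 12 months, 7 and 5 in cortex (TBI vs sham at 24 hr, sham vs naive at 12 months), and 2 and 12 in hippocampus and cortex at 12 months vs 2 weeks. Without the filter, TBI vs sham had 0 members in hippocampus at 24 hr and 2 weeks and 3 in cortex at 24 hr, sham vs naive had 0, 0 and 6 in hippocampus (2 weeks, 6 and 12 months) and 2 in cortex at 24 hr, and 12 months vs 2 weeks had 0 in both tissues. The cause was not tested.

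The replicate block, where numbers mark different rats, left 0 and 1 members in hippocampal TBI vs sham at 24 hr and 2 weeks, 1 in hippocampal and 0 in cortical sham vs naive at 12 months, and changed no other count by over 1.5 times. Among comparisons of different rats, same-numbered deviations all correlated above 0.1 in cortex TBI vs sham at 12 months (0.12 to 0.22, each array best with its own number) and in hippocampus sham vs naive at 3 months (0.11 to 0.52), with 0 members called either way. A block for slide was not run, since each group lies on 1 slide.

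Leaving out 1 array gave 0 to 1 members in hippocampal TBI vs sham at 24 hr, 0 to 3 at 2 weeks, 0 to 4, 2 to 10 and 0 to 2 in hippocampal sham vs naive at 2 weeks, 6 and 12 months, 4 to 9 and 0 to 1 in cortical sham vs naive at 24 hr and 12 months, 4 to 24, 20 to 27 and 25 to 27 between tissues, 0 to 1 in the interaction at 24 hr, and 1 to 2 and 0 to 18 for 12 months vs 2 weeks in hippocampus and cortex. Chosen after seeing the data, leaving out cortex sham replicate 3 and naive replicate 4 gave 26 members between tissues at 2 weeks, leaving out hippocampus naive replicates 2 and 3 gave 2 in sham vs naive at 6 months, and TBI arrays in place of naive gave 14 between tissues at 6 months. At cortex 2 weeks the members' median TBI vs sham was 0.81 on the main scale, 0.05 with the 75th percentile and -0.53 on the authors' scale, with 0 members called on each.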
